A study of Homo sapiens with 10 samples.

Results

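The 8 genes described here encode adhesion molecules built from immunoglobulin domains: ICAM1, ICAM2, ICAM3, ICAM5, VCAM1, ALCAM, L1CAM and F11R. They were chosen by name, as a family, from the 62750 gene IDs counted in 12Z cells. This choice, and that of the gene lists used below, was made with earlier results of these data known. Counts of calls over them are therefore descriptions. 12Z is an immortalised line that the labels describe as epithelial and derived from peritoneal endometriosis, the growth of endometrium-like tissue on the lining of the abdomen. It is 1 line, so differences between donors are not covered. Before treatment all cells were serum-starved overnight in medium with 2% charcoal-stripped serum, and they then received DMSO or an inhibitor for 30 minutes. Cells of 4 groups then received 10 ng/ml IL1β for 6 hours: IL1β alone, IL1β with 1 µM CDD-2728, IL1β with 10 µM CDD-2728, and IL1β with 1 µM CDD-3013. The remaining group was the vehicle control without IL1β. Each of the 5 groups had 2 libraries of poly(A) RNA, and the labels do not say whether these came from separate cultures, so the p-values measure the spread between these libraries, which may be technical. CDD-2728 and CDD-3013 are named by the study as inhibitors of JNK, the kinase that phosphorylates the transcription factor JUN. No group received an inhibitor without IL1β.

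ICAM1 and VCAM1 are the classical inducible ligands for leukocyte integrins: ICAM1 binds LFA-1 (ITGAL with ITGB2) and Mac-1 (ITGAM with ITGB2), and VCAM1 binds VLA-4 (ITGA4 with ITGB1). ICAM2 and ICAM3 also bind LFA-1 and are best known from endothelium and leukocytes, while ICAM5 was described in neurons of the forebrain. ALCAM binds CD6 on lymphocytes and pairs with itself between neighbouring cells, L1CAM is a neuronal adhesion molecule also found on many carcinomas, and F11R (JAM-A) is a component of epithelial tight junctions. In inflamed tissue ICAM1 and VCAM1 are known targets of NF-κB, which IL1β activates.

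The 250 bases upstream of the RefSeq start (GRCh38.p14) are shown for 4 genes: the pair that responded most to IL1β (ICAM1 and VCAM1), ALCAM, which rose less, and ICAM5, which lies beside ICAM1 and fell. Each is written 5′ to 3′ on the strand of the gene, and capitals mark matches on either strand to 2 spellings of the κB motif, GGNNNTTCC and GGNNTTCCC.
ICAM1, chr19:10270870-10271119, plus strand: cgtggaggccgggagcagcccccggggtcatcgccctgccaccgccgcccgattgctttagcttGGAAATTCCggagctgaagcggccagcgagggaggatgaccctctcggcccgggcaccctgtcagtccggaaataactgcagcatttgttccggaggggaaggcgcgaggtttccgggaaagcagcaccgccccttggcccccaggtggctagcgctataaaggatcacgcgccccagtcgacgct
VCAM1, chr1:100719492-100719741, plus strand: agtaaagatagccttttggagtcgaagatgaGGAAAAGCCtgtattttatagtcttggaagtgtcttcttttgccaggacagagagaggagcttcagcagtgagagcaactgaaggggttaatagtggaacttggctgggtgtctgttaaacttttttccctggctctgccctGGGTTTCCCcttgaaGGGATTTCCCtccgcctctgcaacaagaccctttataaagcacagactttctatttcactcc
ALCAM, chr3:105366659-105366908, plus strand: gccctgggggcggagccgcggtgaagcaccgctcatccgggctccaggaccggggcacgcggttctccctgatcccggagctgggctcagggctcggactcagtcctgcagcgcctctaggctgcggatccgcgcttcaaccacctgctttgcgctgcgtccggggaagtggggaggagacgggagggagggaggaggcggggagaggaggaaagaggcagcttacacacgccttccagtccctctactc
ICAM5, chr19:10289702-10289951, plus strand: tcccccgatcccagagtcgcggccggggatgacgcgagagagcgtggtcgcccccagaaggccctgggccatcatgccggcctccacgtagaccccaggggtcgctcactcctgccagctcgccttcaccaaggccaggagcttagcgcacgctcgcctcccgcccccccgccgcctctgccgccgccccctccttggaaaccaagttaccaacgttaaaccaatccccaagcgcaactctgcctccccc

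In the ICAM1 window GGAAATTCC lay at -186 to -178 from the start and matched GGNNNTTCC on both strands. In the VCAM1 window GGGTTTCCC lay at -77 to -69, GGGATTTCC at -62 to -54 overlapped GGATTTCCC at -61 to -53, and GGAAAAGCC at -219 to -211 matched on the minus strand. The ALCAM and ICAM5 windows held neither spelling, nor did those of ICAM3 and L1CAM. Of all 35116 promoters of the same length in the table, 17.1% held GGNNNTTCC, 5.89% held GGNNTTCCC and 20.3% held either. TGANTCA, the AP-1 motif to which JUN binds, was in 6.57% of promoters and in none of these 6 genes' windows. The table matched 6 of the 8 genes. These matches describe letters in a short window and do not show that a factor was bound.

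ICAM1 (chr19:10270835-10286615, plus strand; coordinates of whole genes are from GENCODE 29 on GRCh38) starts a cluster of ICAM genes in which ICAM5 (chr19:10289981-10296778, plus) begins 3366 bases downstream and ICAM3 (chr19:10333776-10339823, minus) lies farther on. VCAM1 (chr1:100719742-100739045, plus) and F11R (chr1:160995211-161021348, minus) are far apart on 1 chromosome. ALCAM lies at chr3:105366909-105576900 (plus), L1CAM at chrX:153861514-153886174 (minus) and ICAM2 at chr17:64002594-64020634 (minus).

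Library totals were 16312600 to 19479416 counts. Replicate libraries had Pearson correlations of log2 CPM (CPM: counts relative to the TMM-scaled library total) of 0.9901 to 0.9925, and 15740 genes passed the count filter. The epithelial label was met in part: of 13 epithelial markers, 5 averaged under 1 CPM over the 10 libraries. KRT8 averaged 6772 CPM, KRT18 2049, KRT19 1124, OCLN 37.75 and CDH1 9.73, but EPCAM had 13 counts in all, ESRP1 had 2 and GRHL2 had 0. Of 14 stromal markers, 1 averaged under 1 CPM (ESR1, 0.344), with the collagen gene COL1A1 at 2800 CPM and PGR at 2.16. Of 8 mesothelial markers, 1 averaged under 1 CPM (KRT5, 0.158), with LRRN4 at 464.5 CPM and MSLN at 68.9. Among the immune markers, CD3E and SPI1 had 0 counts and PTPRC had 34 in all, while CD14 averaged 18.9 CPM, ITGAM 2.70 and ITGB2 1.69. The summed immune level was 19.3 to 20.4 CPM with vehicle and 22.0 to 31.4 in the groups with IL1β. Of 13 endothelial genes, 9 averaged under 1 CPM, among them EMCN with 2 counts and PECAM1 with 60, while KDR averaged 28.3 CPM, TEK 7.63, TIE1 5.82 and CDH5 2.04. The summed endothelial level was 50.9 to 55.8 CPM with vehicle, 29.7 to 30.5 with IL1β and 62.7 to 68.5 at 10 µM CDD-2728. The growth factor receptor gene KDR accounted for 34.4, 13.7 and 46.2 CPM of these on average, and the part of these markers in the results was not tested.

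Of the 8 genes, 6 passed the filter. ICAM3 had 0 counts in every library, which allows a level of up to 0.139 to 0.190 CPM in a single library (3 counts, counting error only). ICAM2 had 1 count in a vehicle library and 1 in a library with 10 µM CDD-2728, and 0 in the other 8. Neither gene, both known from leukocytes or endothelium, was detectable beyond this floor, and neither was tested.

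Per kilobase of exon, which allows levels of different genes to be compared, the vehicle cells were led by ALCAM (19.9 ± 0.810 CPM per kb; SD, n = 2), L1CAM (15.9 ± 1.06) and ICAM1 (15.9 ± 0.577). VCAM1 (6.25 ± 0.236), F11R (5.99 ± 0.0124) and ICAM5 (5.10 ± 0.518) followed. L1CAM and ICAM1 did not differ beyond their spread, while ALCAM lay above both. With IL1β the order of levels was ICAM1 (140 ± 0.390 CPM per kb), VCAM1 (78.3 ± 0.696), ALCAM (52.0 ± 1.46), L1CAM (18.7 ± 0.127), F11R (7.55 ± 1.14) and ICAM5 (3.78 ± 0.228), with no overlap between neighbours. The summed level of the 6 genes went from 68.2 and 69.8 CPM per kb with vehicle to 299.8 and 300.4 with IL1β. In the sum, ICAM1 made up 22.6% and 23.3% with vehicle, 46.5% and 46.6% with IL1β and 63.6% and 64.6% at 10 µM CDD-2728. The share of VCAM1 was 8.71% and 9.40% with vehicle, 25.9% and 26.2% with IL1β and 14.3% and 15.6% at 10 µM CDD-2728. So ICAM1 and VCAM1 held most of the sum once IL1β was present, and the higher dose moved their balance toward ICAM1.

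**Figure D1:**
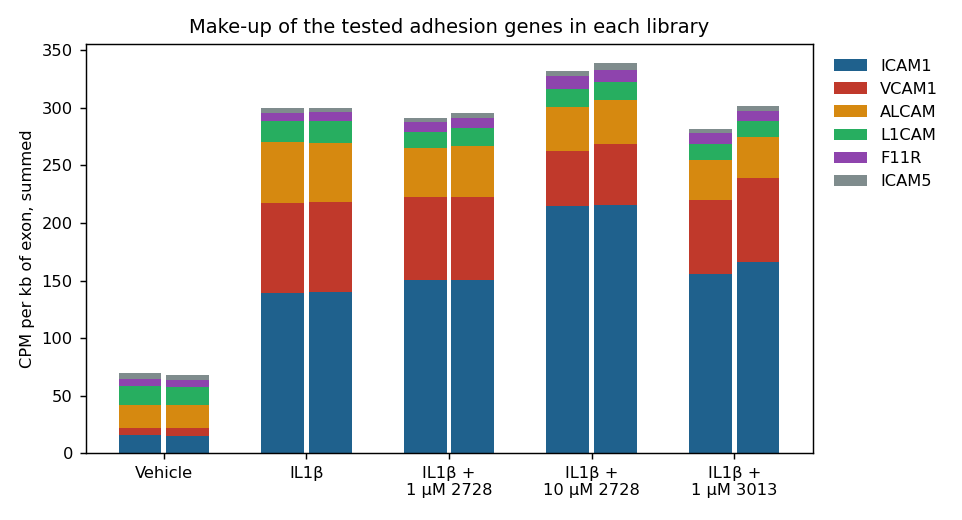
Summed level of the 6 tested genes in each library, in CPM per kb of exon, with 1 bar per library and 1 colour per gene. The vehicle bars reach 68.2 and 69.8, the bars with IL1β alone about 300, and ICAM1 takes the largest part wherever IL1β was given.

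IL1β raised ICAM1 and VCAM1 strongly, ALCAM moderately and L1CAM and F11R slightly, and lowered ICAM5. ICAM1 was at 60.3 and 57.3 CPM in the vehicle libraries and at 517 and 519 with IL1β, far outside each other's range. This is an 8.81-fold rise (log2 fold change 3.14 ± 0.07 SE, adjusted p = 2.92e-20 in edgeR's quasi-likelihood test, Benjamini-Hochberg over all tested genes, as for all adjusted p-values here). VCAM1 went from 36.8 and 38.8 CPM to 470.4 and 476.4, a 12.5-fold rise (3.65 ± 0.08, adjusted p = 2.63e-20). ALCAM, at 138.6 and 146.9 CPM with vehicle, reached 381 and 366.2, a 2.62-fold rise (1.39 ± 0.06, adjusted p = 3.27e-14). In a bulk library, more cells with a transcript and more RNA per cell cannot be told apart.

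The other 3 genes moved by less. L1CAM was at 121.3 and 110.4 CPM with vehicle and 136.6 and 135.3 with IL1β (log2 fold change 0.23 ± 0.07, adjusted p = 0.0177). F11R was at 30.3 and 30.4 CPM with vehicle and at 34.2 and 42.3 with IL1β, where the replicates lay far apart (0.33 ± 0.10, adjusted p = 0.0106). ICAM5 was at 21.4 and 18.5 CPM with vehicle and 15.4 and 14.1 with IL1β (-0.43 ± 0.13, adjusted p = 0.0103). In none of the 3 did the 2 groups' libraries overlap. The share of all genes with such a gap was not computed, so the gap is not read as a result about these genes. All 6 tested genes also lay apart at 1 µM CDD-2728 against IL1β, where 2 were called. Each of the 3 calls was lost when certain single libraries were left out, which leaves a group with 1 library and so less power. The L1CAM difference kept its size without either IL1β library, while that of F11R went from 0.33 to 0.17 without IL1β replicate 2. L1CAM lost its call without vehicle replicate 2 (0.17, adjusted p = 0.173), IL1β replicate 1 (0.23, 0.0934) or IL1β replicate 2 (0.24, 0.0801), F11R without IL1β replicate 2 (0.17, 0.313), and ICAM5 without vehicle replicate 1 (-0.31, 0.147) or IL1β replicate 2 (-0.38, 0.102). Scaling by library totals moved the median of all genes by -0.18 and also ended the calls of L1CAM (0.06, adjusted p = 0.598) and F11R (0.16, 0.206). In all, 5 of the 6 tested genes were called higher and 1 lower, beside 32.6% of all tested genes called (17.6% higher, 15.0% lower).

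**Figure D2:**
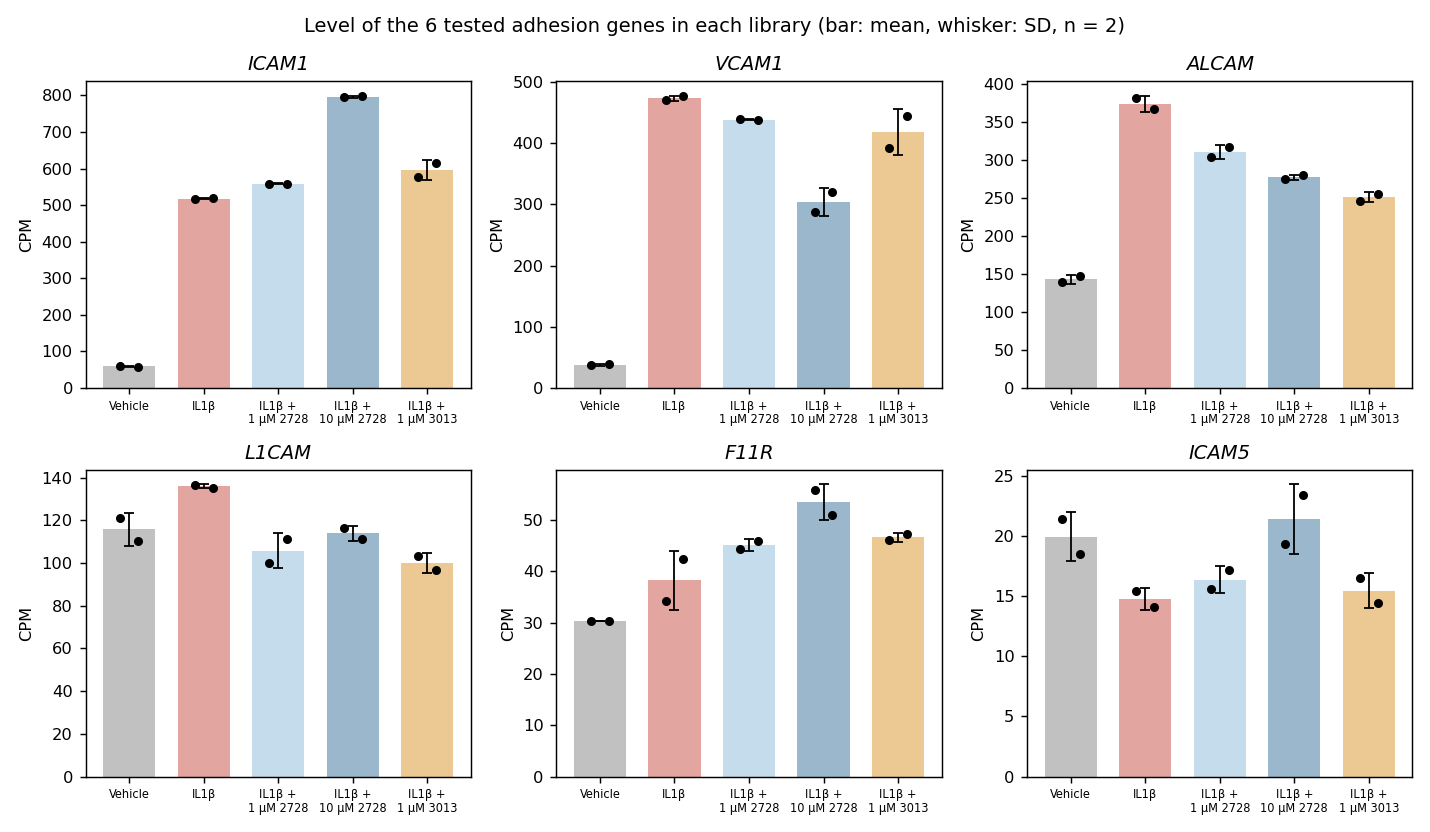
CPM of the 6 tested genes by group, with bars for the mean, whiskers for the SD (n = 2) and points for single libraries; each panel has its own axis starting at 0. ICAM1 climbs from IL1β alone (517 and 519) to 10 µM CDD-2728 (795.1 and 798.7), while VCAM1 drops from 470.4 and 476.4 to 287.1 and 320.

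At 10 µM, CDD-2728 moved ICAM1 and VCAM1 in opposite directions. ICAM1 was at 795.1 and 798.7 CPM, above both IL1β libraries, a 1.54-fold rise over IL1β alone (log2 fold change 0.62 ± 0.06, adjusted p = 1.1e-07). VCAM1 was at 287.1 and 320 CPM, below both IL1β libraries, at 0.641 of the IL1β level (-0.64 ± 0.07, adjusted p = 3.94e-07). Measured on the log2 scale against the rise from vehicle, ICAM1 stood at 120% of it in both libraries and VCAM1 at 80.2% and 84.5%. VCAM1 thus remained 8.03-fold above vehicle (3.01, 95% interval 2.84 to 3.17, adjusted p = 4.54e-19). Both differences kept their direction and call in every setting run. Of 679 genes called and at least 2-fold higher with IL1β, 25.2% were called higher and 32.5% lower at 10 µM against IL1β alone. Changes in either direction were thus common among such genes. By size, the ICAM1 difference stood at percentile 80.33 of all tested genes and that of VCAM1 at 81.05.

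The ratio of ICAM1 to VCAM1 within a library does not depend on scaling between libraries. Per kb of exon it was 2.67 and 2.41 with vehicle and 1.79 and 1.78 with IL1β. It was 2.07 and 2.08 at 1 µM CDD-2728, 4.52 and 4.07 at 10 µM, and 2.40 and 2.25 with CDD-3013. Counting error gave the 10 µM libraries 95% intervals of 4.38 to 4.66 and 3.95 to 4.20, apart from every other library. The libraries of the 3 inhibitor groups lay above both with IL1β alone, a difference that was not tested. At 1 µM CDD-2728 neither gene was called against IL1β. The ratio is not free of gene length and GC trends. With offsets for these, ICAM1 and VCAM1 differed from IL1β by -0.01 and 0.01 with CDD-3013. The differences were 0.07 and -0.1 at 1 µM CDD-2728, and 0.55 and -0.61 at 10 µM.

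**Figure D3:**
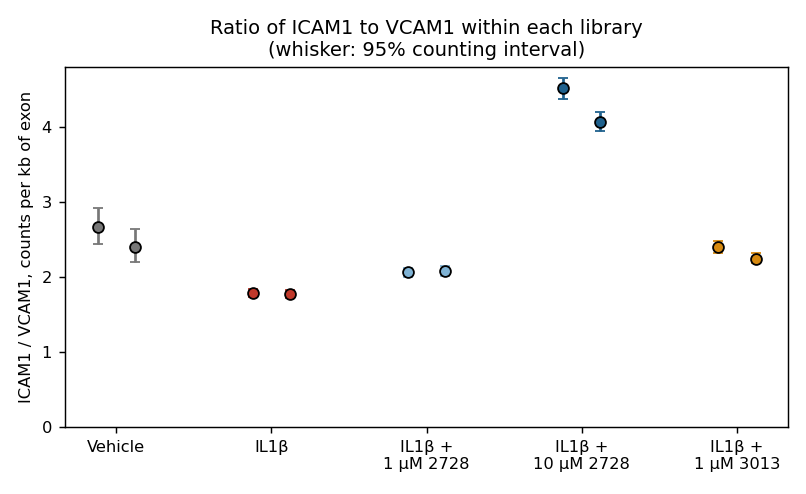
Ratio of ICAM1 to VCAM1 counts per kb of exon in each library, with 95% intervals that cover counting error only. The 10 µM CDD-2728 libraries sit at 4.52 and 4.07, above all others, and the libraries with IL1β alone are lowest at 1.79 and 1.78.

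The other members also moved at 10 µM. ALCAM fell to 274.6 and 279.2 CPM from 381 and 366.2 (-0.43 ± 0.06, adjusted p = 1.67e-05), which left 68.0% and 69.8% of its log2 rise. L1CAM, at 116.4 and 111.4 CPM, fell below both IL1β libraries (-0.25 ± 0.07, adjusted p = 0.0101), to levels within the range of the vehicle libraries. F11R rose to 55.9 and 51.0 CPM from 34.2 and 42.3 (0.49 ± 0.09, adjusted p = 0.000393). ICAM5 rose to 19.3 and 23.4 CPM from 15.4 and 14.1 (0.53 ± 0.13, adjusted p = 0.00262), overlapping the vehicle libraries at 21.4 and 18.5. Thus 3 genes were called higher and 3 lower, beside 31.5% of all tested genes (15.6% higher, 15.9% lower). The L1CAM call was lost without IL1β replicate 1 (adjusted p = 0.0721), IL1β replicate 2 (0.0574) or 10 µM replicate 2 (0.0917) and with library totals (0.0574), and the ICAM5 call without 10 µM replicate 2 (0.0742).

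At 1 µM, CDD-2728 lowered ALCAM and L1CAM. ALCAM was at 303.8 and 316.7 CPM (-0.27 ± 0.06 against IL1β, adjusted p = 0.0142) and L1CAM at 99.9 and 111.5 CPM (-0.36 ± 0.07, adjusted p = 0.00369), all below the IL1β libraries. ICAM1, at 557.3 and 559 CPM, lay above both IL1β libraries but was not called (0.11, 95% interval -0.03 to 0.24, adjusted p = 0.396). VCAM1, at 439 and 437.9 CPM, was not called either (-0.11, interval -0.26 to 0.04, adjusted p = 0.439). F11R was at 44.3 and 45.8 CPM (adjusted p = 0.18) and ICAM5 at 15.6 and 17.2 CPM (adjusted p = 0.599). The 2 calls stood beside 4.59% of all genes (2.03% higher, 2.57% lower). They were lost without IL1β replicate 1 (ALCAM -0.23, adjusted p = 0.258; L1CAM -0.35, 0.08) or without 1 µM replicate 1 (ALCAM -0.24, 0.142; L1CAM -0.28, 0.0934), and ALCAM's also without IL1β replicate 2 (-0.29, 0.0847).

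The 2 doses of CDD-2728 differed for 3 of the 6 genes, beside 27.1% of all tested genes (13.3% higher, 13.8% lower at 10 µM). ICAM1 was higher at 10 than at 1 µM (0.51 ± 0.06, adjusted p = 3.57e-06) and VCAM1 lower (-0.53 ± 0.07, adjusted p = 1.04e-05). ICAM5 was also called higher (0.38 ± 0.13, adjusted p = 0.0265), a call lost without 1 µM replicate 1 (adjusted p = 0.16), without 10 µM replicate 2 (0.304), in DESeq2 (0.0552) and with length and GC offsets (0.141). ALCAM differed by -0.16 between the doses (95% interval -0.30 to -0.03, adjusted p = 0.061), L1CAM by 0.11 (interval -0.04 to 0.26) and F11R by 0.25 (interval 0.05 to 0.44), and none of these was called. With a replicate block plus length and GC offsets, ALCAM (-0.15, adjusted p = 0.0485) and F11R (0.25, 0.0295) passed. The F11R difference passed with library totals (adjusted p = 0.0138), with length and GC offsets (0.0258), with the higher CPM minimum (0.0309), and without IL1β replicate 1 (0.0499) or 2 (0.0478).

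With 1 µM CDD-3013, ALCAM and L1CAM fell. ALCAM was at 246.1 and 255.4 CPM (-0.58 ± 0.06 against IL1β, adjusted p = 9.66e-07), and 56.6% and 60.5% of its log2 rise was left. L1CAM fell to 103.5 and 96.9 CPM (-0.44 ± 0.07, adjusted p = 8.41e-05), below both vehicle libraries. F11R was called higher at 46.0 and 47.3 CPM (0.29 ± 0.10, adjusted p = 0.0218), and so was ICAM1 at 576.9 and 614.8 CPM (0.20 ± 0.06, adjusted p = 0.0164). VCAM1, at 391.8 and 445 CPM, was not called (-0.18 ± 0.07, 95% interval -0.33 to -0.03, adjusted p = 0.0548), and ICAM5 was at 16.5 and 14.4 CPM (adjusted p = 0.746). These 4 calls stood beside 36.4% of all genes (19.0% higher, 17.3% lower).

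The CDD-3013 values of ICAM1, VCAM1 and ALCAM depended on a correction for gene length and GC content. With per-library trends over both taken out, ICAM1 (57.7% GC) went to -0.01 (adjusted p = 0.905), VCAM1 (39.9% GC) to 0.01 (0.91) and ALCAM (38.3% GC) to -0.28 (0.000689), while L1CAM (60.6% GC) stood at -0.50 (1.74e-06). The same correction left ICAM1 at 0.55 and VCAM1 at -0.61 at 10 µM CDD-2728 against IL1β. The ICAM1 call with CDD-3013 was also lost with library totals (adjusted p = 0.149) and without IL1β replicate 1 (0.0919), IL1β replicate 2 (0.0859) or CDD-3013 replicate 2 (0.13). F11R lost its call with library totals (0.0969) and without IL1β replicate 1 (0.15, adjusted p = 0.371) or CDD-3013 replicate 2 (0.0853). VCAM1 passed the threshold without CDD-3013 replicate 2 (-0.26, adjusted p = 0.0289), without either 1 µM CDD-2728 library (-0.17, 0.0476), with library totals (-0.26, 0.00482), with the higher CPM minimum (-0.19, 0.0322) and with only the 4 libraries compared (-0.18, 0.0308). The ALCAM and L1CAM calls with CDD-3013 were kept in every setting run.

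The 2 compounds at 1 µM differed for 1 of the 6 genes, beside 17.9% of all tested genes (9.85% higher, 8.01% lower with CDD-3013). ALCAM was lower with CDD-3013 than with CDD-2728 (-0.31 ± 0.06, adjusted p = 0.00294), but with length and GC offsets the difference was -0.06 (adjusted p = 0.602). For ICAM1 the difference was 0.09 (95% interval -0.04 to 0.23), for VCAM1 -0.07 (interval -0.22 to 0.08), for L1CAM -0.08 (interval -0.23 to 0.08) and for F11R 0.05 (interval -0.15 to 0.25). ICAM5 had the widest interval, from -0.35 to 0.19. No comparison was made between 10 µM CDD-2728 and CDD-3013, whose doses differ.

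**Figure D4:**
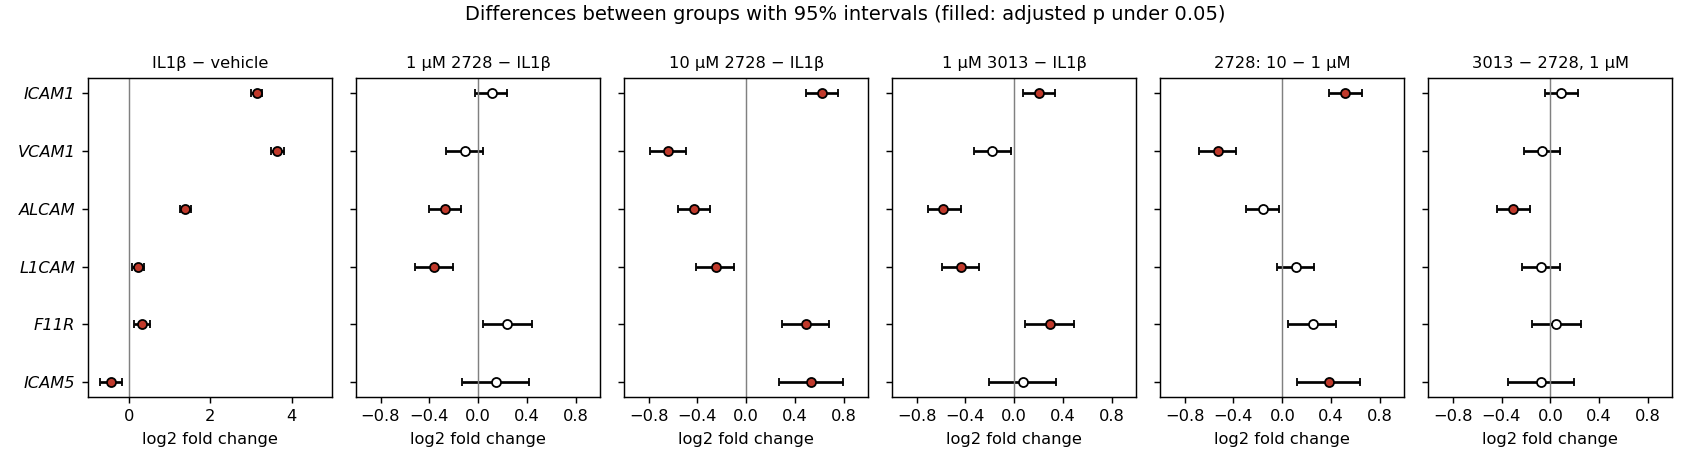
Log2 fold changes of the 6 tested genes in 6 comparisons, with 95% intervals; filled points have an adjusted p under 0.05, and the IL1β panel has a wider axis. ICAM1 and VCAM1 lie on opposite sides of 0 at 10 µM CDD-2728 (0.62 and -0.64), and ALCAM lies below 0 in all 3 inhibitor groups against IL1β.

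Against vehicle, which shares its libraries with the IL1β comparison, ICAM1, VCAM1, ALCAM and F11R were called higher in all 3 inhibitor groups. With the main scaling the number of calls was 4 of 6 at 1 µM CDD-2728, beside 34.8% of all genes (18.3% higher, 16.6% lower), 4 at 10 µM, beside 34.7% (18.2% higher, 16.4% lower), and 6 with CDD-3013, beside 49.4% (26.0% higher, 23.4% lower). With library totals, L1CAM (-0.32, adjusted p = 0.00194) and ICAM5 (-0.48, 0.00421) were also called at 1 µM CDD-2728, both lower than with vehicle. ALCAM stood 2.17-fold above vehicle at 1 µM CDD-2728, 1.94-fold at 10 µM and 1.76-fold with CDD-3013. With length and GC offsets this order changed, with log2 fold changes of 1.17, 1.02 and 1.10. With CDD-3013, L1CAM (-0.21, adjusted p = 0.0217) and ICAM5 (-0.37, adjusted p = 0.0186) were called lower than in vehicle cells. Both of these calls were lost in DESeq2 (0.0576 and 0.0516), without vehicle replicate 1 (0.304 and 0.227) and without CDD-3013 replicate 2 (0.237 and 0.197), and that of L1CAM also without IL1β replicate 1 (0.0547).

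Among the integrin chains that bind ICAM1 and VCAM1, ITGB1 was at 515.5 CPM with vehicle and 618.9 with IL1β (0.26 ± 0.06, adjusted p = 0.00271). ITGAL had 8 counts in all libraries, ITGB2 was at 1.32 CPM with vehicle and 1.38 with IL1β, and ITGA4 at 3.98 and 3.26 CPM (these 4 were singled out as the main partners, after their values were seen). Against IL1β, ITGB1 was called lower at 10 µM CDD-2728 (-0.29, adjusted p = 0.00128) and with CDD-3013 (-0.29, 0.00105), but not at 1 µM CDD-2728 (-0.15). ITGA4 was called lower with CDD-3013 (1.96 CPM, -0.73, adjusted p = 0.0345), but not at 10 µM (-0.02) or 1 µM CDD-2728 (-0.08). Of 14 tested integrins and other surface partners, 7 rose with IL1β and 0 fell (median log2 fold change 0.33, beside -0.01 over all genes). EGFR, a growth factor receptor that L1CAM can engage, rose from 168.7 to 536.1 CPM (1.67 ± 0.08), and the fibronectin receptor chain ITGA5 from 187.5 to 324.3 CPM (0.79). ITGAM, a chain of Mac-1, rose from 0.829 to 4.39 CPM (2.40 ± 0.32, adjusted p = 7.13e-07). At 10 µM CDD-2728, 1 of the 14 rose and 6 fell against IL1β (median -0.08, beside 0.01), among them ITGAM at 1.14 CPM (-1.95 ± 0.30) and ITGA5 at 200.6 CPM (-0.69). With CDD-3013 0 rose and 6 fell (median -0.25, beside -0.01), including ITGAV (-0.76) and EGFR (-0.71), and at 1 µM CDD-2728 0 rose and 2 fell. The counts of every list stand beside 32.6% of all genes called with IL1β, 31.5% at 10 µM CDD-2728, 36.4% with CDD-3013 and 4.59% at 1 µM CDD-2728. All list values, here and below, are without length and GC offsets. Those offsets changed the CDD-3013 values of ICAM1, VCAM1 and ALCAM, and their effect on list genes was not tested.

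Of 30 other tested adhesion molecules of the immunoglobulin superfamily, 8 rose and 4 fell with IL1β (median 0, beside -0.01 over all genes), where 32.6% of all genes were called. CD47, the ligand of SIRPα on macrophages, rose from 59.1 to 107.5 CPM (0.86 ± 0.07, adjusted p = 2.06e-09), and CD58, the ligand of CD2 on T cells, from 8.36 to 15.3 CPM (0.87 ± 0.13). The junctional protein CLMP rose by 0.78 and the nectin NECTIN2 by 0.47. Against IL1β alone, 2 rose and 6 fell at 10 µM CDD-2728 (median 0.11, beside 0.01), where 31.5% of all genes were called. CD58 fell to 7.32 CPM (-1.07 ± 0.14, adjusted p = 3.55e-06), and the receptor phosphatase PTPRK fell from 104.8 to 63.3 CPM (-0.73 ± 0.08). With CDD-3013, 3 rose and 7 fell (median -0.12, beside -0.01), where 36.4% of all genes were called. BSG (basigin) rose from 630.5 to 968.2 CPM (0.62 ± 0.08), and MCAM fell from 118.3 to 82.7 CPM (-0.52 ± 0.07). At 1 µM CDD-2728, 0 rose and 2 fell, MCAM (-0.41) and PTPRK (-0.29).

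Cytoplasmic linkers tie these molecules to the actin cortex and to junctional scaffolds. With IL1β, 8 of 20 rose and 3 fell (median 0.14, beside -0.01), among them moesin (MSN, 0.40 ± 0.07), α-actinin (ACTN1, 0.41 ± 0.06) and syntenin (SDCBP, 0.73). Under 10 µM CDD-2728, 3 rose and 9 fell against IL1β (median -0.18, beside 0.01). ACTN1 fell from 425.7 to 306 CPM (-0.48 ± 0.07). Ezrin (EZR) fell by 0.35 and the tight junction scaffold TJP1 by 0.51 on the log2 scale. With CDD-3013, 2 rose and 7 fell (median -0.08, beside -0.01), and at 1 µM CDD-2728 0 rose and 3 fell.

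Of 16 genes for proteases that release or cut such molecules, their activators and inhibitors, 9 rose and 1 fell with IL1β (median 0.30, beside -0.01). ADAM17, the sheddase known for ICAM1 and VCAM1, rose from 54.0 to 82.7 CPM (0.61 ± 0.08, adjusted p = 7.19e-07), and the plasminogen activator PLAT from 29.2 to 88.2 CPM (1.59). MMP9, which can release ICAM1, rose from 3.49 to 11.8 CPM (1.76). The 10 µM dose of CDD-2728 came with 2 higher and 7 lower calls (median -0.14, beside 0.01), with PLAT at 39.6 CPM (-1.16) and the inhibitor TIMP3 falling from 103.7 to 55.5 CPM (-0.90). BACE1, a membrane protease, rose from 53.9 to 95.2 CPM (0.82). With CDD-3013, 5 rose and 6 fell (median -0.05, beside -0.01), including ADAM12 (-0.56) and TIMP3 (-0.82), and at 1 µM CDD-2728 1 rose and 2 fell.

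Of 28 transcription factors and cofactors known at the ICAM1 and VCAM1 promoters, 22 rose and 1 fell with IL1β (median 0.82, beside -0.01). The NF-κB genes NFKB2 (65.9 to 365.3 CPM, 2.47 ± 0.07), RELB (24.6 to 105.4 CPM, 2.09 ± 0.08) and NFKB1 (72.4 to 292.8 CPM, 2.02 ± 0.07) led, and CEBPB, a bZIP factor, rose from 135.4 to 505.9 CPM (1.90 ± 0.08). At 10 µM CDD-2728, 12 rose and 8 fell against IL1β (median 0.07, beside 0.01). NFKB2 rose further to 749.4 CPM (1.04 ± 0.06, adjusted p = 3.52e-11), the interferon regulatory factor IRF1 from 36.6 to 93.2 CPM (1.35 ± 0.09) and CEBPB to 955.8 CPM (0.92 ± 0.07). JUN fell from 316.4 to 81.6 CPM (-1.96 ± 0.07, adjusted p = 3.88e-15), beside 139.3 CPM with vehicle. With CDD-3013, 12 rose and 9 fell (median 0.05, beside -0.01), with JUN at 128 CPM (-1.31 ± 0.07) and NFKB2 at 521.2 CPM (0.51 ± 0.06). At 1 µM CDD-2728, 6 rose and 2 fell, with JUN at 166.9 CPM (-0.92 ± 0.07).

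Each member was compared with 11906 protein-coding genes that had a symbol and a mean of at least 1 CPM, leaving out the members. The patterns most like that of ICAM1 over the 10 libraries were those of the cytokine LIF (Pearson r of 0.999), the chemokine CXCL2 (0.998) and the pentraxin PTX3 (0.998). LIF averaged 25.2 CPM with vehicle, 329.3 with IL1β and 533.4 at 10 µM CDD-2728. Those most like VCAM1 were the chemokine CXCL8 (0.998), the transporter SLCO3A1 (0.997) and CXCL6 (0.997). CXCL8 averaged 1.93 CPM with vehicle, 960 with IL1β and 382.1 at 10 µM CDD-2728. The genes nearest to ALCAM were RAP1B (0.989), NAB1 and SLC25A37 (0.987 each), and L1CAM was nearest to KLHL29 (0.971). MEIS1 (0.982) lay nearest to F11R and C1QTNF6 (0.968) to ICAM5. Among the members themselves r was 0.95 for ICAM1 with VCAM1, 0.94 for VCAM1 with ALCAM and -0.06 for VCAM1 with L1CAM. These correlations are descriptions: the libraries fall into groups, and the step from vehicle to IL1β makes up most of the spread of ICAM1 and VCAM1.

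Genes next to ICAM1 had values of their own. ICAM4, 352 bases downstream, had 0 counts in all libraries, and ICAM5 fell with IL1β. MRPL4, a mitochondrial ribosomal gene 10790 bases upstream, was at 55.6 CPM with vehicle and 52.3 with IL1β (-0.09, adjusted p = 0.487). TYK2, a Janus kinase gene 10706 bases from ICAM3, had a log2 fold change of 0.02 with IL1β (adjusted p = 0.894). Other neighbours rose: RAVER1, 136 bases from ICAM3, by 0.25 (adjusted p = 0.0106), ERN1, 18508 bases from ICAM2, by 1.35 (1.98e-11), and USF1, 17903 bases from F11R, by 0.43 (0.0012). ICAM4-AS1, on the opposite strand and sharing 815 bases with ICAM1, had 0 and 1 counts in the vehicle libraries, 5 and 3 with IL1β and 14 and 7 at 10 µM CDD-2728. This was 0.363 to 0.940 counts per 1000 ICAM1 counts in the 8 libraries with IL1β. Whether counting used strand is not given in the sources used here, so reads of such overlapping pairs cannot be told apart. F11R shares 23392 bases with a read-through gene on its own strand that had 28 counts in all, and L1CAM shares 13954 with one that had 0; how reads shared by 2 genes were handled is not given in the sources used here.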

How the data were processed

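The deposited table holds whole-number read counts for each gene ID, made by the authors. The submitters' processing notes name fastp, featureCounts, STAR and hg38, with no versions or settings. Of 62750 IDs, 61918 matched a symbol with their version, 707 without it and 125 did not; 1433 were set aside because another ID with the same symbol had more reads. Lengths and positions are from GENCODE 29.

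Genes were filtered with filterByExpr (minimum count 10), TMM-scaled (factors from 0.917 up to 1.114) and analysed in edgeR 4.0.16 (R 4.3.3) with the robust quasi-likelihood method, all 10 libraries in 1 fit with 5 residual degrees of freedom and a biological coefficient of variation of 0.06. P-values were adjusted by Benjamini-Hochberg over 15740 genes in each comparison, and a gene was called at an adjusted p under 0.05. SEs are Wald values from the quasi-likelihood variance, not below counting error. CPM uses TMM-scaled totals, and correlations use log2 CPM with a prior count of 2. The procedure was also run on simulated counts with the same dispersion for every gene. This setting is simpler than the real data, and no error rate is taken from it.

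Named genes are the 8 members, annotated genes within 20 kb of one, up to 4 called genes with the smallest adjusted p per list and comparison (a gene named for one comparison may be followed into others), and for each member the 3 genes with the largest correlation. The text gives part of these, and KDR and the marker genes beside them. The members and lists were chosen with earlier results of these data known. Alternatives were other scaling (relative log expression, library totals), other filters (none, or 5 CPM or more in 2 or more libraries), the Wald test of DESeq2 1.42.0, a fit of the 4 libraries compared, length and GC offsets (for 97.3% of genes), a replicate block, and leaving out each library.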

Additional observations from a re-analysis of the deposited data

How the results depend on the processing

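The opposite differences of ICAM1 and VCAM1 at 10 µM CDD-2728 against IL1β and against 1 µM, and the IL1β rises of ICAM1, VCAM1 and ALCAM, kept direction and call in every setting run. Over single genes, comparisons and settings, 952 values kept their direction and side of the threshold. With the direction kept, 39 lost a call and 16 gained one. The 19 that changed sign were counted apart, whether or not a call was lost. Depth limits what can be said of ICAM2 and ICAM3, which had at most 1 count in a library.

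With length and GC offsets, alone and with the replicate block alike, CDD-3013 against IL1β gave -0.01 for ICAM1, 0.01 for VCAM1 and -0.15 for ICAM5. CDD-3013 against CDD-2728 then gave -0.08 for ICAM1 and 0.11 for VCAM1, and 0 of 6 genes called in place of 1. With library totals, ICAM5 gave -0.02 in CDD-3013 against IL1β and -0.02 at 10 µM against vehicle, and F11R -0.02 in CDD-3013 against CDD-2728. Leaving out 1 library at a time gave L1CAM at 10 µM against vehicle from -0.09 to 0.05 (above 0 without vehicle replicate 1, and at 0.01 without 10 µM replicate 2) and ICAM5 in the same comparison from -0.05 (without 10 µM replicate 2) to 0.24. It gave ICAM5 in CDD-3013 against IL1β from -0.02 (without CDD-3013 replicate 1) to 0.17. In CDD-3013 against CDD-2728 it gave VCAM1 from -0.16 to 0.02 (without CDD-3013 replicate 1) and ICAM5 from -0.18 to 0.02 (without CDD-3013 replicate 2). None of these sign changes concerned a called value except ICAM1 in CDD-3013 against IL1β, and the cause was not tested.

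Leaving out 1 library gave 3 to 6 genes called in IL1β against vehicle, 0 to 2 at 1 µM CDD-2728, 2 to 5 with CDD-3013, 4 to 6 at 10 µM and 2 to 4 between the doses; such fits assume that a lone library varies like the other groups. Counts over all genes moved too. In CDD-3013 against CDD-2728, 2811 genes were called, but 1818 with only the 4 libraries compared, 667 with length and GC offsets (547 with the block as well), 656 without 1 µM CDD-2728 replicate 2 and 951 without CDD-3013 replicate 2. For 1 µM CDD-2728 against IL1β the 723 became 224 and 315 without IL1β replicate 1 and 2, and 318 and 1486 without 1 µM replicate 1 and 2. For 10 µM the 4958 became 3205 and 3287 without IL1β replicate 1 and 2, for CDD-3013 the 5723 became 3680 without IL1β replicate 1, and between the doses the 4262 became 2668 and 2722 without 10 µM replicate 1 and 2.

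Equal replicate numbers are not stated to mark a shared culture or day. The correlations between groups of the replicate differences were -0.114 to 0.055 over 10 pairs of groups, above 0 in 6 and over 0.1 in 0, so the numbers were not taken as pairs. With the replicate block, VCAM1 passed the threshold in CDD-3013 against IL1β (-0.18, adjusted p = 0.0452), and no other call of a member changed. With the block and length and GC offsets together, ALCAM (-0.15, adjusted p = 0.0485) and F11R (0.25, 0.0295) passed between the doses of CDD-2728.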
